A study of Mus musculus with 75 samples.

Results

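The genes described here were the 5 NF-kB subunits of the mouse (Nfkb1, Nfkb2, Rel, Rela and Relb) together with 5 genes that NF-kB is known to switch on (Nfkbia, Nfkbiz, Tnfaip3, Birc3 and Icam1). They were taken as a list of named genes, drawn up with earlier results of these data known, and all 10 of 10 were found among the 24984 genes of the RNA-seq count files. The 44 RNA-seq libraries came from mouse skin fibroblasts. A time series held 4 libraries at each of passages P1, P3, P5 and P7, in which cells were taken towards replicative senescence, the lasting growth arrest of cells that have divided for long in culture. The study's methods give 2-month-old female mice as the source of these cells and name newborn as well as adult fibroblasts for the interventions, and the labels do not say which were used where. In the interventions, the transcription factor E2f4 was overexpressed from a doxycycline-inducible lentivirus (2 libraries, with 2 of a vector control), and lentiviral short hairpin RNAs were directed against E2f4 (sh1), Tead1 (sh3 and sh4) and Atf3 (sh5 and sh6), each group with 3 libraries and each target with its own non-targeting control (nt, 3 libraries). The study's text places the overexpression in P4 cells, the E2f4 knockdown in P3 cells and the Atf3 knockdown in pre-senescent cells, while its methods name P2 and P3 cells as proliferating and P6 cells for senescence interventions, so the passage of each experiment is uncertain. Cells that carried hairpins were selected with puromycin. ATAC-seq peak lists, which mark open chromatin, covered 13 samples of the same 4 passages. Nothing in the labels says whether libraries of a group came from separate animals or cultures, so p-values measure only the spread between these libraries, which may be technical.

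NF-kB is a family of transcription factors that act as pairs of subunits. In resting cells the pairs are held in the cytoplasm by inhibitor proteins such as IκBα, the product of Nfkbia, and a signal from tumour necrosis factor, interleukin-1 or a danger sensor releases them. The released pairs turn on inflammatory genes as well as their own brakes, so the amounts of Nfkbia and Tnfaip3 RNA are often read together with those of the targets. In ageing fibroblasts the pathway is known as a driver of the secreted inflammatory factors of senescent cells. The amount of RNA of a subunit does not say how much of it is in the nucleus.

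Because NF-kB genes are themselves NF-kB targets, the stretch of DNA before their starts is given first. Promoters of 300 bases, from 250 bases before to 50 bases after a transcript start, were read from RefSeq (build GRCm38.p6) for 7 of the 10 genes. Nfkb1, Relb and Nfkbiz had no entry. The NF-kB consensus, searched on both strands, matched in Nfkb2, Rel, Nfkbia and Tnfaip3, while 4.51% of all 32851 promoters held a match. The 4 promoters with a match are printed 5′ to 3′ on the strand of the gene, with matches in capitals (overlapping matches run together), and the Icam1 promoter is printed beside them because Icam1 had the largest change at P7 against P1 among the members.
Nfkbia (chr12:55492598-55492897, minus strand): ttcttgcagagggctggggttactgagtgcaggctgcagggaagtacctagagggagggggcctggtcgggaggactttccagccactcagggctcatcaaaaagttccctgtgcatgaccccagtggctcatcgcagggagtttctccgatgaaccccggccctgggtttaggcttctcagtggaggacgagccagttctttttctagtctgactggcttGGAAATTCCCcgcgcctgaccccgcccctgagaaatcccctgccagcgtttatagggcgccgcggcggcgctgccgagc
Nfkb2, the most upstream of its 3 listed promoters (chr19:46304487-46304786, plus strand): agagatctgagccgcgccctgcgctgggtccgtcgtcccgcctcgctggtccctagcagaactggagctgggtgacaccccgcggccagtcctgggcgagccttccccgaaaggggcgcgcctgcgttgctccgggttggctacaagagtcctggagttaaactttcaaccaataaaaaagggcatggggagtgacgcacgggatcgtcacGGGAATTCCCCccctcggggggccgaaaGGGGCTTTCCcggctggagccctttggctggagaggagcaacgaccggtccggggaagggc
Rel (chr11:23770920-23771219, minus strand): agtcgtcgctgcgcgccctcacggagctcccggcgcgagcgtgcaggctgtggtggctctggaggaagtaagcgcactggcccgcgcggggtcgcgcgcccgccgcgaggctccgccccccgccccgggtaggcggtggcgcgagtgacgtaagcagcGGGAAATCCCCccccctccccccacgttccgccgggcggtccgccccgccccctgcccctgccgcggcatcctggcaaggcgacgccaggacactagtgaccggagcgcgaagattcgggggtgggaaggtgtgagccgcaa
Tnfaip3, the upstream of its listed promoters (chr10:19015361-19015660, minus strand): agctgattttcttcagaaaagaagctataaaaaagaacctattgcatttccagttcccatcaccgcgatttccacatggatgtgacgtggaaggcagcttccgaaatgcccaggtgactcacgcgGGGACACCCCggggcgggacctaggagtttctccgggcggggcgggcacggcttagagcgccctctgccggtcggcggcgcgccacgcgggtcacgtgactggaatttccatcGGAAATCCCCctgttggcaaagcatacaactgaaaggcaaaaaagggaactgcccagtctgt
Icam1 (chr9:21015690-21015989, plus strand): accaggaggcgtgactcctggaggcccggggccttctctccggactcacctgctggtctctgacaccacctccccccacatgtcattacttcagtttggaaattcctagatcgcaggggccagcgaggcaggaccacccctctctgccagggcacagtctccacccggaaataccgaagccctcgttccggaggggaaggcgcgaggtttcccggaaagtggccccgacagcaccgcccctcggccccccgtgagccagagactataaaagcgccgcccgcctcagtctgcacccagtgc
The Nfkbia match began 29 bases before the start site. In Nfkb2 the first base of the matches lay 39, 38 and 11 bases before the start, in Rel 92 and 91 bases, and in Tnfaip3 125 and 12 bases. The AP-1 words TGACTCA and TGAGTCA, the TEAD word GGAATG and the E2F words TTTCCCGC, TTTCGCGC, TTTGCCGC and TTTGGCGC were searched on both strands in the same windows. AP-1 matched in Tnfaip3 alone (5.2% of all promoters), the TEAD word in Nfkb2 alone (14.7%), inside the NF-kB match of its second promoter, and E2F in Rel alone (2.26%), on the other strand and overlapping the NF-kB match. A match is a description of the letters and says nothing about binding.

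Libraries held 9147324 to 27552949 counts over genes. TMM scaling factors, which correct a library's total for a few very abundant genes, were 1.081 to 1.089 at P1 and 0.924 to 0.9475 at P7, so that plain library totals shift every P7 against P1 value by -0.21 on the log2 scale. The 8 fibroblast markers, collagens among them, summed to 19820 to 22320 CPM (counts scaled to a common library size) at P1. This was the lowest of the passages, with 29740 to 35930 CPM at P3, 31370 to 39490 at P5 and 33920 to 36060 at P7. In the intervention groups they summed to 15700 CPM or more, and none was at 0 in any library. Markers of macrophages (14 genes) summed to 358.5 to 552.8 CPM at P1, 50.47 to 67.7 at P3, 23.52 to 33.82 at P5 and 34.82 to 56.04 at P7. Endothelial, keratinocyte and skeletal muscle markers were likewise highest at P1 (177.1 to 200.5, 60.33 to 374.8 and 143.1 to 215.9 CPM), and in the passage libraries T cell markers reached at most 0.06849 CPM. In the intervention groups the macrophage sum was between 5.017 and 25.26 CPM. In this bulk RNA, fewer cells of a type and less RNA per cell cannot be told apart. 2 libraries stood apart: Atf3 sh5 replicate 3 (mean correlation 0.969 with its group, 15006 genes detected, 15.08% of reads outside genes) and E2f4 nt replicate 1 (18352 genes detected, 14.27% outside genes). Results of the members that rest on them are given with and without them.

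The targeted genes moved as labelled in most groups. E2f4 rose from 41.5 to 1149 CPM on overexpression (log2 fold change 4.79) and fell from 60.03 to 21.26 CPM with sh1. Tead1 fell from 541.5 CPM to 279 with sh3 and 316.3 with sh4. Atf3 was scarce in its own experiment, at 2.77 to 3.31 CPM in the control libraries. It fell to a mean of 1.337 CPM with sh5 (log2 fold change -1.14 in edgeR's quasi-likelihood test, adjusted p = 0.0447), or by 0.71 on the log2 scale without sh5 replicate 3 (adjusted p = 0.0393). That call was lost without sh5 replicate 1 or any 1 nt library (adjusted p = 0.0764 to 0.115), and with sh6 its mean was 1.72 CPM (adjusted p = 0.114). In the passage libraries, which these interventions did not touch, Atf3 was at 7.43 to 26.4 CPM.

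Levels of different genes can be compared only per length, and here CPM were divided by the length of all RefSeq exons of the gene. At P1 Rela, which carries the main activating domain of the classical pair, was the most abundant, at 29.6 ± 1.71 CPM per kilobase (SD, n = 4). It was followed by Nfkb1 (17.4), Nfkbia (15.9) and Icam1 (15.4), whose libraries overlapped. Nfkb2 (6.96) came next, then Nfkbiz (5.16), Birc3 (5.03) and Relb (4.19), among which Nfkbiz overlapped both others. Tnfaip3 (1.85) and Rel (0.695) were lowest, each without overlap with its neighbours. At P7 Rela (34.7) and Nfkb1 (17.1) kept the first places, and Nfkbia (8.23), Icam1 (7.14) and Nfkb2 (7.13) had overlapping ranges. Nfkb2 shares 21.1% of its exon bases with the annotated exons of Psd and 4833438C02Rik, Nfkb1 shares 0.154% with Gm46827, and the other 8 share none.

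With passage, the 10 members did not all move the same way, and neither the subunits nor the feedback genes moved as a group. Nfkbia, Tnfaip3 and Icam1 were lower than P1 at every later passage, Rel was lower at P5 and P7, and Rela was slightly higher at P7, while Nfkb1, Nfkb2, Relb, Nfkbiz and Birc3 passed the test in none of the 6 passage comparisons. A gene passed the test where its adjusted p was under 0.05 in edgeR's quasi-likelihood test, adjusted over all 13442 genes tested. Against P1, 3 members passed at P3 (33.4% of all tested genes passed), 4 at P5 (51.2%) and 5 at P7 (62.5%). The lower members were 3 at P3 (17.5% of all genes were lower), 4 at P5 (26.1%) and 4 at P7 (31.9%, with 30.5% higher). The median over the 10 members at the last passage was -0.20 on the log2 scale, beside -0.01 over all genes.

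**Figure D1:**
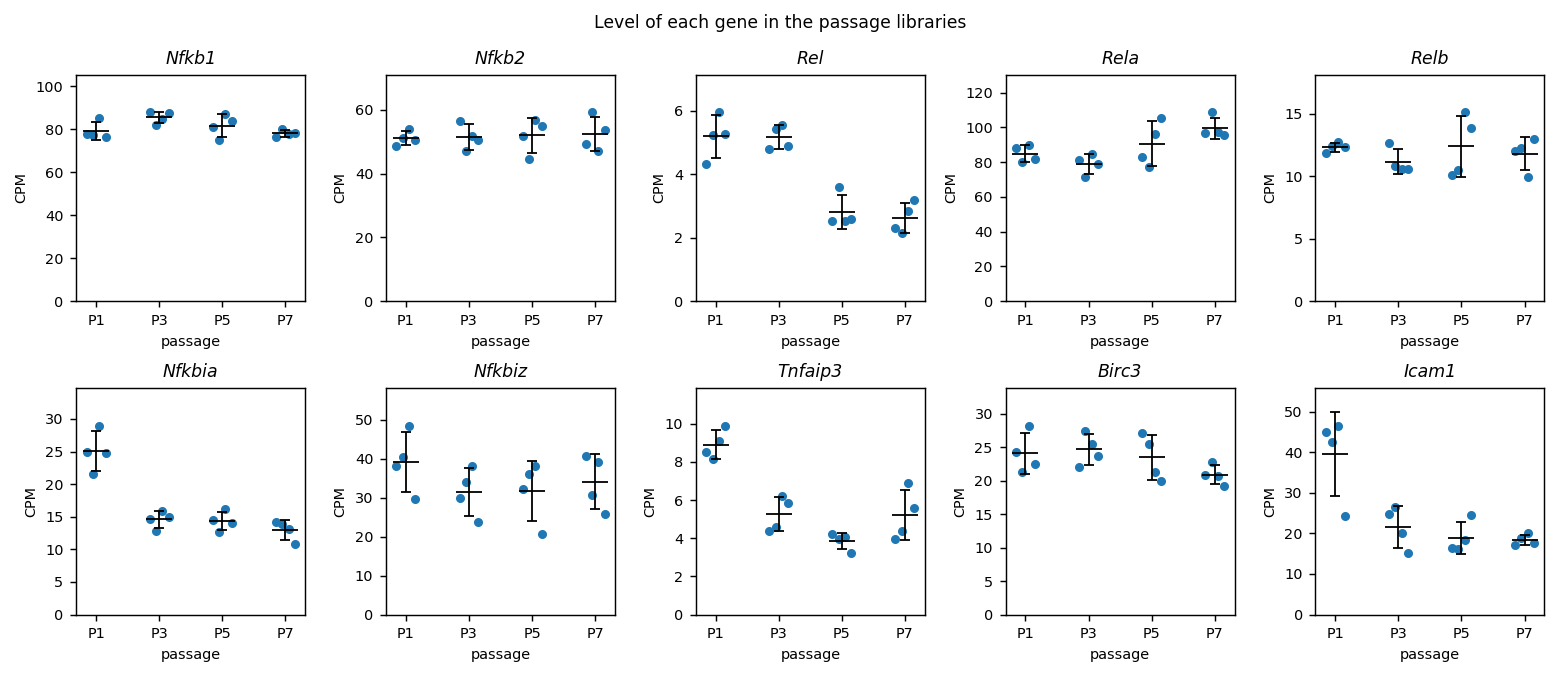
CPM of each of the 10 genes (vertical axis, from 0, a scale of its own for each gene) in the 4 libraries of P1, P3, P5 and P7. Points are libraries, the horizontal bar is the mean and the whiskers are 1 SD (n = 4). Nfkbia, Tnfaip3 and Icam1 have lower means from P3 on, Rel from P5 on, and Nfkb1 and Nfkb2 stay within 74.8 to 87.8 and 44.6 to 59.3 CPM.

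Among the subunits, Rel (chr11:23736847-23770969, minus strand), the c-Rel subunit best known from lymphocytes, changed between P3 and P5. Its levels were 4.31, 5.23, 5.95 and 5.26 CPM at P1 and 4.8, 5.42, 5.55 and 4.9 CPM at P3. They were 2.52, 3.6, 2.52 and 2.58 CPM at P5 and 2.29, 2.16, 2.84 and 3.19 CPM at P7. Every P5 and P7 library lay below every P1 and P3 library. On the log2 scale the change was -0.98 at P7 against P1 (standard error 0.18, adjusted p = 0.000106) and -0.88 at P5 against P3 (standard error 0.18, adjusted p = 0.00142). Between P3 and P1 it was -0.01, with a 95% interval from -0.36 to 0.35. Rel was counted with only 28 to 87 reads in these libraries.

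Rela (chr19:5637442-5648134, plus strand), which encodes p65, had the opposite direction. It was at 88.3, 79.9, 89.8 and 81.6 CPM at P1 and at 81.2, 71.3, 84.9 and 78.9 CPM at P3. It reached 82.8, 77.2, 96.5 and 106 CPM at P5 and 96.7, 109, 97.4 and 95.5 CPM at P7. All P7 libraries were above all P1 and P3 libraries, and P5 overlapped every other passage. Rela differed by 0.33 on the log2 scale at P7 against P3 (standard error 0.09, adjusted p = 0.00649) and 0.23 at P7 against P1 (standard error 0.09, adjusted p = 0.0401). The P7 against P1 call did not hold with plain library totals (0.02, adjusted p = 0.858), and it was lost without P1 replicate 2 (0.21, adjusted p = 0.102), P1 replicate 4 (0.22, adjusted p = 0.0903) or P7 replicate 2 (0.19, adjusted p = 0.115). It was also lost with no filter on low counts (0.23, adjusted p = 0.0524) and with at least 10 counts required in every library (0.20, adjusted p = 0.0681).

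The other subunits stayed near their P1 level. Nfkb1 (chr3:135584655-135691969, minus strand), which encodes the p105 precursor of p50, averaged 79.1 ± 4.04, 85.4 ± 2.73, 81.7 ± 5.17 and 78.1 ± 1.66 CPM from P1 to P7 (SD, n = 4 each). Nfkb2 (chr19:46300994-46312400, plus strand), which encodes the p100 precursor of the alternative branch, lay between 44.6 and 59.3 CPM in all 16 libraries. Relb (chr7:19606217-19629438, minus strand), the partner of p52 in that branch, lay between 9.91 and 15.1 CPM. At P7 against P1 the 95% intervals of the log2 fold change were -0.17 to 0.13 for Nfkb1, -0.16 to 0.23 for Nfkb2 and -0.35 to 0.22 for Relb. With plain library totals Nfkb1 was at -0.23 (adjusted p = 0.00811).

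Among the inhibitors, Nfkbia (chr12:55489409-55492647, minus strand) was already lower at P3. At P1 it was at 24.9, 21.5, 29 and 24.8 CPM, and at P3 at 14.7, 12.8, 15.9 and 15 CPM. At P5 it was at 14.5, 12.7, 16.2 and 14.1 CPM, and at P7 at 14.1, 14, 13.1 and 10.8 CPM. The P1 libraries did not overlap any later one, and the later passages overlapped each other. The log2 fold change was -0.78 at P3 against P1 (standard error 0.12, adjusted p = 4.67e-05) and -0.95 at P7 against P1 (standard error 0.12, adjusted p = 1.28e-06), and at P7 against P3 it was -0.17 (adjusted p = 0.261).

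Tnfaip3 (chr10:19000910-19015410, minus strand) encodes A20, which removes the ubiquitin chains that carry the signal to the kinases. It stood at 8.49, 8.16, 9.09 and 9.9 CPM at P1 and at 4.4, 4.6, 6.19 and 5.85 CPM at P3. It stood at 4.2, 3.94, 4.07 and 3.24 CPM at P5 and at 3.97, 4.4, 6.92 and 5.57 CPM at P7. No later library reached the lowest P1 library. The log2 fold change against P1 was -0.76 at P3 (standard error 0.17, adjusted p = 0.00206), -1.20 at P5 (standard error 0.18, adjusted p = 1.25e-05) and -0.77 at P7 (standard error 0.17, adjusted p = 0.000714). From P5 to P7 its value was 0.43 (adjusted p = 0.116).

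Icam1 (chr9:21015940-21028814, plus strand), a cell surface molecule that leukocytes hold on to, was at 44.9, 42.6, 46.6 and 24.2 CPM at P1. Replicate 4 was well below the other 3. At P3 it was at 24.7, 26.5, 20.2 and 15.1 CPM, at P5 at 16.3, 16.2, 18.3 and 24.5 CPM, and at P7 at 17.1, 18.8, 20 and 17.7 CPM. The P3 and P5 ranges each reached past P1 replicate 4, and the P7 range did not. The log2 fold change was -0.87 at P3 against P1 (standard error 0.19, adjusted p = 0.00147) and -1.10 at P7 against P1 (standard error 0.19, adjusted p = 5.3e-05). Icam1 was the member with the most negative value in the latter comparison. Nfkbia, Tnfaip3 and Icam1 were highest where the summed macrophage, endothelial, keratinocyte and muscle markers were highest, at P1. The summed fibroblast markers were lowest there, and the part of all these markers in the result was not tested. At P7 against P3 none of the 3 passed the test.

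Nfkbiz and Birc3 complete the feedback genes. Nfkbiz (chr16:55811375-55838954, minus strand) encodes a nuclear IκB protein that helps NF-kB at secondary response genes. It ranged from 29.6 to 48.5 CPM at P1 and from 25.8 to 40.8 CPM at P7, with a 95% interval of the log2 fold change from -0.59 to 0.19. Replicate 4 was its lowest library at all 4 passages. Birc3 (chr9:7847468-7873205, minus strand) encodes cIAP2, a ubiquitin ligase of the tumour necrosis factor receptor complex, and ranged from 21.3 to 28.2 CPM at P1 and from 19.2 to 22.8 CPM at P7 (log2 fold change -0.20, interval -0.45 to 0.04). With plain library totals Birc3 was at -0.41 (adjusted p = 0.00465).

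Between neighbouring passages few members differed. Rel alone passed at P5 against P3 (28.7% of all genes passed), Rel and Rela passed at P7 against P3 (51.3%), and with plain library totals 4 members did. Without P5 replicate 2, Rela passed at P5 against P3 as well (0.26, adjusted p = 0.0361). None passed at P7 against P5, where 16.8% of all genes passed in edgeR. 1 member, Tnfaip3, had an unadjusted p under 0.05 in that comparison, and DESeq2 called 0. These comparisons share libraries with those against P1, so their agreement is not independent.

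Several genes outside the list followed a member closely over the 16 passage libraries, which share depth and passage. Pearson's r of log2 CPM was 0.978 for Rel with Xiap, 0.968 for Nfkbia with Mid1ip1, 0.951 for Rela with Dvl1, 0.937 for Tnfaip3 with Armcx4 and 0.925 for Icam1 with Vasn. For Nfkb1, Nfkb2, Relb, Nfkbiz and Birc3 the best values were 0.766 with Kctd11, 0.867 with Syde1, 0.80 with Pcbp4, 0.85 with Chst15 and 0.832 with Stk38. Among the members, the most alike were Nfkbia with Icam1 (0.77) and with Tnfaip3 (0.76), and the most opposite were Rel and Rela (-0.72).

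Other genes of the pathway were taken from lists by role and compared at P7 with P1, where 30.5% of all genes were higher and 31.9% lower. Of 4 ligands tested of 10 listed, 1 was higher and 1 lower (median -0.46), the latter being Il33, an alarmin of barrier tissues, at -1.75 (standard error 0.26, adjusted p = 1.02e-05). Of 21 receptors and adaptors, 6 were higher and 7 lower (median 0.08). They included Cd40, a receptor of the alternative branch, which rose from 7.221 to 14.34 CPM (log2 fold change 0.99), and Tnfrsf1b, a receptor of tumour necrosis factor, which fell from 61.62 to 40.11 CPM (-0.62). Of 14 kinase and ubiquitin ligase genes, 5 were higher and 2 lower (median 0.00). Ikbkg, the scaffold NEMO of the IκB kinase, went from 58.58 to 120.4 CPM (1.04), and Map3k14, the kinase NIK of the alternative branch, from 18.51 to 34.61 CPM (0.90). Of 14 other inhibitors tested of 15 listed, 1 was higher and 4 lower (median -0.08), and Nlrc5, an NLR protein that also acts on antigen presentation genes, fell most, by 1.46 on the log2 scale. Of 23 other target genes tested of 28 listed, 8 were higher and 7 lower (median 0.23). The acute phase gene Saa3 fell from 501.5 to 0.3632 CPM, the matrix metalloproteinase gene Mmp3 from 792.2 to 53.5 CPM and the complement gene Cfb from 45.94 to 3.594 CPM. At P3 they were at 2.077, 50.01 and 3.664 CPM. Saa3 fell further from P3 to P7 (log2 fold change -2.51, adjusted p = 0.00638), while Mmp3 and Cfb were at 0.10 and -0.03 over that step. Ptgs2 went the other way, from 19.74 CPM at P1 to 256.1 CPM at P7 (log2 fold change 3.7, adjusted p = 3.1e-11 in edgeR). Its change at P7 against P5 was 2.24 (adjusted p = 8.78e-07). In that comparison 10 of the 23 other target genes tested were higher and 1 lower, beside 7.67% and 9.1% of all genes.

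At the promoters, peaks were compared by strength. For each sample the strongest ATAC-seq peak within 1000 bases of the gene's 5′ end, ranked by the caller's −log10 p, was given as a percentile of all peaks of that sample, with 0 where there was no peak. 9 members had a peak in all 13 samples, and Nfkb2 had one in none of 4 P1 samples and in 2 of 3 at P7. At the start sites inside Nfkb2, the strongest peak lay between the 96.01 and 98.88 percentile in every sample. Peaks at Relb and Rel ranked highest, with P1 means of 99.0 and 96.8. Nfkbiz, Rela, Birc3, Tnfaip3 and Nfkbia had P1 means between 87.5 and 91.7. Nfkb1 (67.5) and Icam1 (53.6) had weaker peaks.

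**Figure D2:**
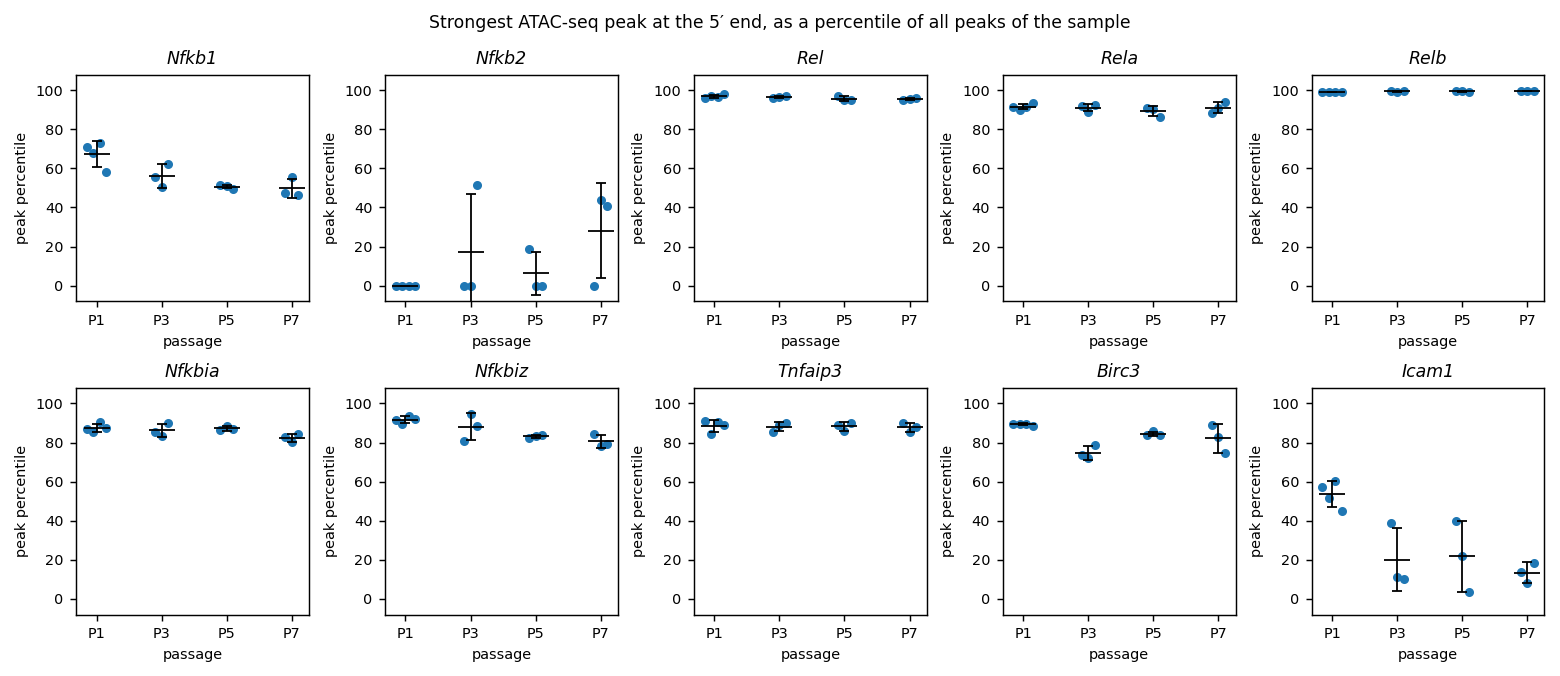
Percentile of the strongest ATAC-seq peak at the 5′ end of each gene (vertical axis, 0 for no peak, 100 for the strongest peak of the sample) in the P1 (n = 4), P3, P5 and P7 samples (n = 3 each). Points are samples, the horizontal bar is the mean and the whiskers are 1 SD. Icam1 falls from 45.09 to 60.5 at P1 to 7.892 to 18.58 at P7, and Relb stays above 98.8 throughout.

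The Icam1 peak differed most between P1 and P7 among the members with a peak in every sample. Its percentile was 57.07, 51.66, 60.5 and 45.09 at P1, 38.85, 11.41 and 10.05 at P3, 39.87, 22.02 and 3.456 at P5, and 13.83, 7.892 and 18.58 at P7. Every later sample lay below every P1 sample. The mean difference between P7 and P1 was -40.1 percentile points (two-sided exact permutation test over the absolute difference, p = 0.0286, the smallest that 35 regroupings allow). Nfkbiz was at 91.7 ± 1.7 (SD, n = 4) at P1 and 80.6 ± 3.2 (n = 3) at P7, with the same exact p, and Relb was higher by 0.651 points, also with that p. Over all annotated starts of Nfkbiz the drop was smaller, from 94.39 to 97.04 at P1 to 91.39 to 92.65 at P7. Rel (-1.3), Nfkb1 (-17.8) and Nfkbia (-5.06) did not overlap between P7 and P1 either, with an exact p of 0.0571. In all, 6 of 10 members did not overlap, beside 42.5% of 13189 genes measured the same way, and 10 members were tested without adjustment. With the smaller tail doubled, the exact p of each of the 6 was 0.0571. Leaving out any P1 or P7 sample left a design in which the exact test cannot go below 0.1 or 0.0667. The numbers of peaks differed between passages, at 168982 to 186562 at P1 and 200376 to 231558 at P7, and depth was not known from the lists.

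The interventions asked what happens to the same genes when a candidate regulator of senescence is raised or lowered. The experiments were fitted apart from each other, each against its own control, so values are compared within an experiment only. Icam1 passed the test in 4 of the 6 groups, and so did Nfkbiz, which was lower with E2f4 overexpression and higher with Tead1 sh3 and both Atf3 hairpins.

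**Figure D3:**
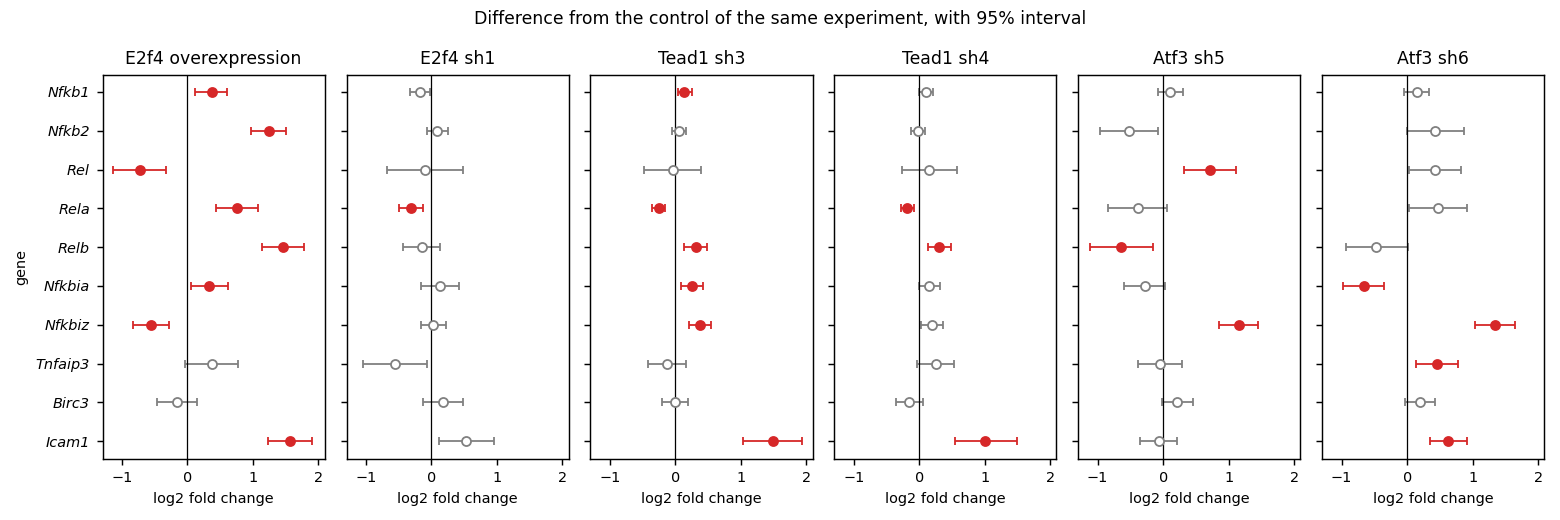
Log2 fold change against the control of the same experiment (horizontal axis) for each of the 10 genes (rows) in the 6 groups. Points are estimates, bars are 95% intervals, and filled red points have an adjusted p under 0.05. Icam1 lies at 1.57, 1.49 and 1.01 for E2f4 overexpression and the Tead1 hairpins, and Nfkbiz at 1.15 and 1.34 for the Atf3 hairpins.

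Overexpression of E2f4, a repressor of cell cycle genes in resting cells, moved 8 members (57.2% of all 13199 genes passed), 6 of them higher (28.9%) and 2 lower (28.2%). Icam1 was at 29.4 and 36.1 CPM with E2f4 and at 10.6 and 11.5 CPM with the vector (log2 fold change 1.57, standard error 0.15, adjusted p = 2.41e-05). Relb was at 32.2 and 35 against 11.1 and 13.4 CPM (1.46, standard error 0.14, adjusted p = 2.62e-05). Nfkb2 was at 94 and 105 against 39.6 and 44.7 CPM (1.24, standard error 0.12, adjusted p = 2.46e-05). Both subunits of the alternative branch thus lay at over 2 times their vector level. Rela was at 117 and 128 against 61.3 and 84.4 CPM (0.75, adjusted p = 0.00141). Nfkb1 rose by 0.37 (adjusted p = 0.0147) and Nfkbia by 0.33 (adjusted p = 0.0439). DESeq2 did not call Nfkbia (adjusted p = 0.112), and leaving out either E2f4 library ended both calls. Rel went the other way, at 5.16 and 4.54 against 7.68 and 8.53 CPM (-0.73, adjusted p = 0.00604), as did Nfkbiz at 26.4 and 30.7 against 42.7 and 40.9 CPM (-0.55, adjusted p = 0.00355). The call of Nfkbiz was lost without E2f4 replicate 1 (-0.45, adjusted p = 0.0586), and 5 members then passed. Tnfaip3 was at 0.37 (adjusted p = 0.113) and Birc3 at -0.16 (adjusted p = 0.325). Over the 10 members the median was 0.37, beside 0.01 over all genes. The share of reads outside genes was 5.636% and 6.009% with E2f4 and 10.83% and 11.48% with the vector, and its part in the result was not tested. Macrophage markers summed to 5.017 and 5.448 CPM with E2f4 and 7.466 and 7.665 CPM with the vector, and keratinocyte markers to 79.8 and 87.83 against 23.49 and 25.88 CPM. Skeletal muscle markers summed to 22.47 and 23.99 against 66.67 and 76.82 CPM, and endothelial markers to 9.079 and 9.379 against 4.148 and 5.302 CPM. The part of these markers was not tested.

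Elsewhere in the pathway, list counts are read beside the 28.9% of all genes that were higher with E2f4 and the 28.2% lower. Of 15 other inhibitors, 9 were higher and 2 lower (median 0.45). Bcl3, a nuclear IκB protein, was at 22.73 against 4.262 CPM (log2 fold change 2.43, standard error 0.17, adjusted p = 4.35e-06). Of 14 kinase and ubiquitin ligase genes, 2 were higher and 9 lower (median -0.57). Of 20 other targets, 11 were higher and 4 lower (median 0.56), led by the chemokine gene Cxcl5 at 45.17 against 7.74 CPM. The ligand gene Tnfsf11, which encodes RANKL, was at 50.35 against 10.98 CPM (adjusted p = 2.8e-06).

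Knockdown of E2f4 with sh1 moved Rela alone (17.8% of all 12310 genes passed). Rela was at 107, 105 and 84.9 CPM with sh1 and at 128, 123 and 117 CPM with nt, without overlap (log2 fold change -0.31, standard error 0.09, adjusted p = 0.0223). Without nt replicate 1, the library with many genes detected, 0 members passed and Rela was at -0.28 (adjusted p = 0.118). Without nt replicate 2 Rela was at -0.29 (adjusted p = 0.0946). Icam1 was at 8.61, 10.6 and 11.9 against 6.41, 8.96 and 6.1 CPM (0.53, adjusted p = 0.0748). It passed without sh1 replicate 1 (0.66, adjusted p = 0.0414) or nt replicate 2 (0.74, adjusted p = 0.0409). Macrophage markers summed to 15.33 to 22.65 CPM with sh1 and 6.301 to 12.82 CPM with nt, skeletal muscle markers to 111.5 to 135.6 against 73.62 to 76.2 CPM, and fibroblast markers to 25540 to 28100 against 33900 to 34540 CPM. Their part was not tested. Among the subunits of the alternative branch, Nfkb2 was at 0.09 (interval -0.07 to 0.25) and Relb at -0.15 (interval -0.43 to 0.13). Of the other target genes 5 of 18 were higher and 0 lower, beside 10% and 7.79% of all genes, among them Plau, the urokinase gene, at 0.83 (adjusted p = 2.55e-05).

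Tead1 is a DNA-binding partner of the YAP and TAZ coactivators. With its hairpin sh3, 6 members passed (35.4% of all 13012 genes), 5 of them higher (17.6%) and 1 lower (17.7%). With sh4, 3 members passed (29.1%). Icam1 was at 3.93, 5.62 and 6.26 CPM with sh3, at 3.56, 3.8 and 4.04 CPM with sh4 and at 1.27, 2.27 and 2.07 CPM with nt. The hairpin libraries did not overlap the control. Icam1 rose by 1.49 on the log2 scale with sh3 (standard error 0.22, adjusted p = 2.92e-06) and 1.01 with sh4 (standard error 0.23, adjusted p = 0.00108), from 22 to 40 reads in the control libraries. Icam1 stood above 99.2% of all genes by log2 fold change with sh3 and above 98.6% with sh4. Relb rose by 0.31 and 0.30 (adjusted p = 0.00626 and 0.00853), and both calls were lost without nt replicate 1 (0.24 and 0.23, adjusted p = 0.0564 and 0.0675). Rela was at 75.6, 77.7 and 82.6 CPM with sh3 and at 81.2, 84.4 and 81.1 CPM with sh4, below 94.9, 91.6 and 93.4 CPM with nt. It fell by 0.25 (adjusted p = 0.000157) and 0.18 (adjusted p = 0.00448) on the log2 scale. Nfkbiz (0.38, adjusted p = 0.000447), Nfkbia (0.26, adjusted p = 0.012) and Nfkb1 (0.14, adjusted p = 0.0294) passed with sh3. Nfkb1 was not called by DESeq2 (adjusted p = 0.0528) and was lost without nt replicate 3 or any sh3 library, and Nfkbia was lost without nt replicate 2. With sh4 Nfkbiz was at 0.20, Nfkbia at 0.15 and Nfkb1 at 0.11. Skeletal muscle markers summed to 64.88 to 75 CPM with sh3, 73.71 to 84.42 with sh4 and 98.13 to 99.87 with nt. Fibroblast markers summed to 29260 to 30180, 28410 to 29150 and 30160 to 31540 CPM, and keratinocyte markers to 7.352 to 9.098, 6.769 to 8.405 and 6.721 to 7.483 CPM. The part of these markers in the result was not tested.

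No member differed between sh4 and sh3 in edgeR (7.37% of all genes passed), 3 had an unadjusted p under 0.05 (Nfkbiz, Tnfaip3 and Icam1), and DESeq2 called 0. The 95% interval of the difference was -0.88 to -0.07 for Icam1, -0.35 to -0.02 for Nfkbiz and 0.09 to 0.65 for Tnfaip3. By the study's list of hairpins, sh3 and sh4 target nearly the same site, so they are not independent reagents.

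Atf3 is a stress-induced member of the ATF/CREB family that pairs with AP-1 proteins. Nfkbiz rose with both of its hairpins. With sh5, 3 members passed (35.9% of all 13345 genes), with sh6 4 (49.8%), and 5 differed between sh6 and sh5 (52.6%). Nfkbiz was at 31.1, 32.6 and 42.8 CPM with sh5, at 41, 38.2 and 42.4 CPM with sh6 and at 16.9, 16.9 and 14.3 CPM with nt. All hairpin libraries were above all control libraries. Nfkbiz rose by 1.15 on the log2 scale with sh5 (standard error 0.13, adjusted p = 0.00038) and 1.34 with sh6 (standard error 0.13, adjusted p = 1.84e-05), and 1.02 for sh5 without its replicate 3 (adjusted p = 2.06e-06). Between the hairpins Nfkbiz was at 0.19 (interval -0.10 to 0.48), and without sh5 replicate 3 at 0.33 (adjusted p = 0.00664).

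Of the subunits, Nfkb2 and Rela differed between the Atf3 hairpins. Nfkb2 was at 46.9, 43 and 24.5 CPM with sh5, at 81.5, 73.2 and 66.6 CPM with sh6 and at 50.3, 55.2 and 58.7 CPM with nt. Rela was at 72.8, 74.1 and 37.7 CPM with sh5, at 118, 113 and 104 CPM with sh6 and at 82.3, 78.5 and 80.9 CPM with nt. The control lay between the hairpins for both genes, and the lowest sh5 library was replicate 3 each time. The difference between sh6 and sh5 was 0.95 for Nfkb2 (standard error 0.20, adjusted p = 0.00248) and 0.86 for Rela (standard error 0.20, adjusted p = 0.00506). Without sh5 replicate 3 it was 0.70 (adjusted p = 1.12e-05) and 0.59 (adjusted p = 2.05e-06). Against nt, neither passed with sh5 (-0.52 and -0.39, adjusted p = 0.0617 and 0.155) or sh6 (0.43 and 0.47, adjusted p = 0.0906 and 0.0732) in edgeR. Without sh5 replicate 3, Nfkb2 passed with sh5 (-0.26, adjusted p = 0.0352), Rela did not (-0.11, adjusted p = 0.215), and 4 members passed in all. Nfkb2 also passed with sh5 without its replicate 1 (-0.70, adjusted p = 0.0306). DESeq2 called Nfkb2 with sh5 (-0.51, adjusted p = 0.04) and Rela with sh6 (0.49, adjusted p = 0.0457). With sh6 and nt fitted without the sh5 libraries, Nfkb2 and Rela passed and 8 members did in all. Rel was at 5.85, 5.27 and 6.54 CPM with sh5 and 3.9, 3.46 and 3.37 CPM with nt (0.72, standard error 0.18, adjusted p = 0.0117), and 0.66 without sh5 replicate 3 (adjusted p = 0.0119). With sh6 Rel was at 0.42 (adjusted p = 0.0714) and Relb at -0.47 (adjusted p = 0.0941). Relb was at 13.1, 17 and 8.18 CPM with sh5 and 20.7, 17.3 and 21.5 CPM with nt (-0.64, adjusted p = 0.0407). Without sh5 replicate 3 it was at -0.38 (adjusted p = 0.0296), and the call was lost without sh5 replicate 1 or any nt library.

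Among the feedback genes, Icam1 was at 10.3, 10.1 and 9.53 CPM with sh6, above 6.83, 5.93 and 6.56 CPM with nt (0.63, standard error 0.13, adjusted p = 0.00199). With sh5 it was at 6.45, 6.35 and 5.64 CPM (-0.07, interval -0.35 to 0.21), and the hairpins differed by 0.70 (adjusted p = 0.00109). Nfkbia was lower with sh6, at 13.8, 16.2 and 14.7 CPM against 23, 22.4 and 25.3 CPM with nt (-0.66, standard error 0.14, adjusted p = 0.00314). With sh5 it was at 20.3, 22.5 and 15.3 CPM, a value of -0.28 (adjusted p = 0.136). The hairpin difference of -0.38 (adjusted p = 0.0471) was -0.54 without sh5 replicate 3 (adjusted p = 0.000483), and it was lost without sh5 replicate 1 or 2 or any sh6 library. Tnfaip3 was higher with sh6 than with nt (0.46, adjusted p = 0.0245) and than with sh5 (0.51, adjusted p = 0.0155). The first was lost without sh6 replicate 1 or 2 or nt replicate 2 or 3, and the second without sh6 replicate 1 or 2. Without either of these sh6 libraries 3 members differed between the hairpins, and without sh5 replicate 3 there were 6. Skeletal muscle markers summed to 196.9 to 215.5 CPM with sh6, 15.11 to 17.71 with sh5 and 37.64 to 39.02 with nt, and fibroblast markers to 15700 to 16810, 25090 to 37870 and 39180 to 40980 CPM. E2f4 itself was higher with sh6 (63.53 CPM) than with nt (39.83 CPM). The part of these values in the hairpin differences was not tested.

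**Figure D4:**
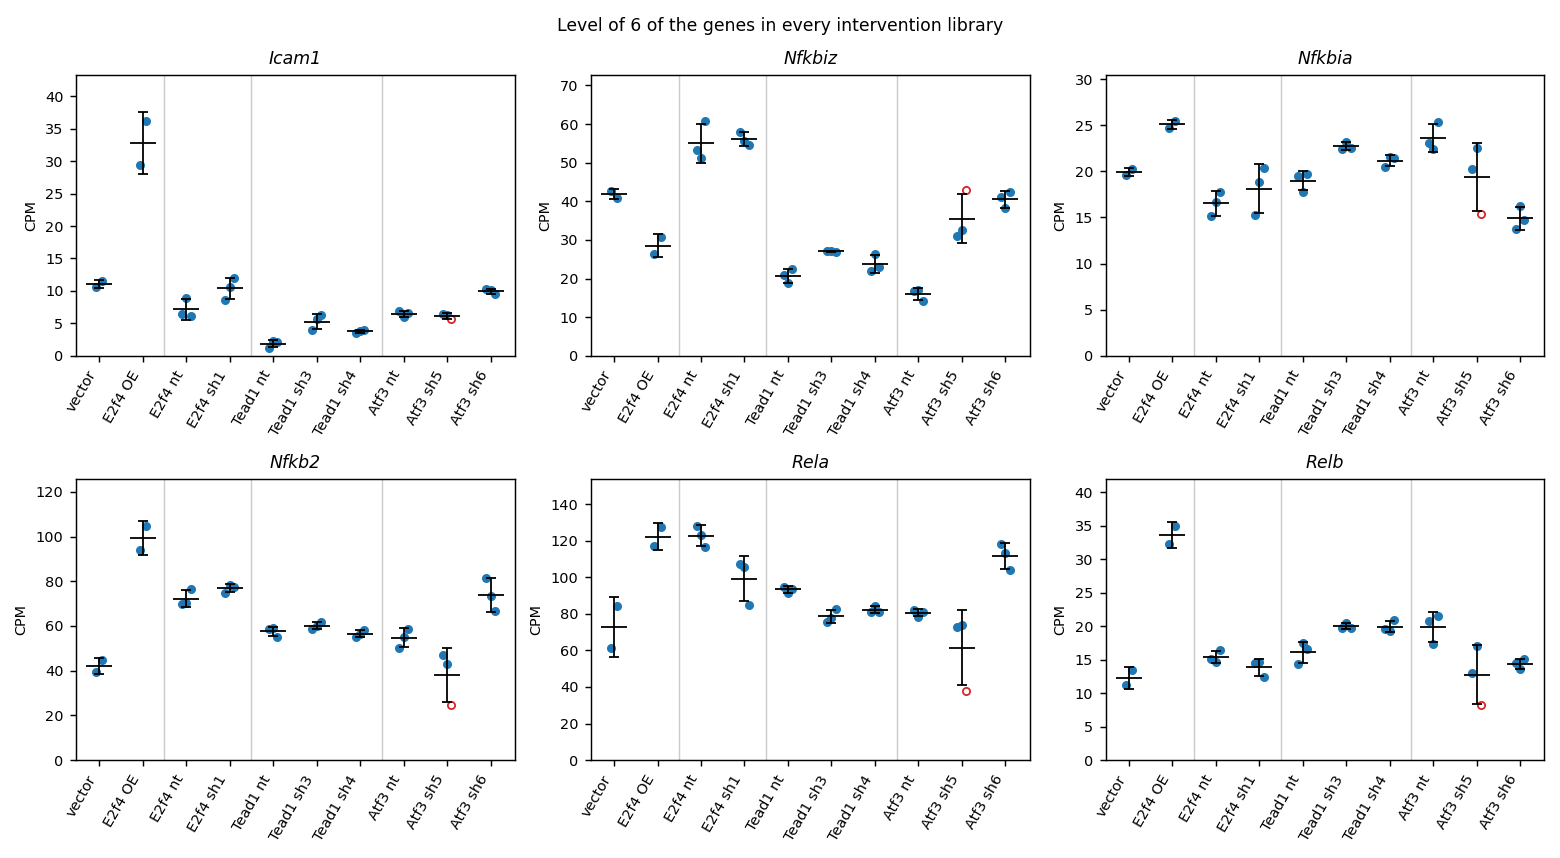
CPM of 6 of the 10 genes (vertical axis, from 0, a scale of its own for each gene) in every intervention library. Points are libraries, bars the mean and whiskers 1 SD (n = 2 in the vector and E2f4 overexpression (OE) groups, n = 3 elsewhere), with grey lines between experiments. The open red point is Atf3 sh5 replicate 3, which lies at 24.5 CPM for Nfkb2, 37.7 for Rela and 8.18 for Relb.

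The gene of the kinase NIK, Map3k14, was at 5.822 CPM with sh6 and 19.13 with sh5 (log2 difference -1.72, adjusted p = 7.51e-06). Cxcl5 was at 11.69 with sh6 and 39.21 CPM with sh5 (-1.75, adjusted p = 4.33e-06). Of 21 other targets, 8 were higher and 3 lower with sh5 (median 0.20), beside 17.7% and 18.1% of all genes. With sh6, 11 were higher and 5 lower (median 0.36), beside 23.8% and 26% of all genes. The medians over all genes were -0.03 with sh5 and -0.02 with sh6.

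Side by side over the 6 intervention groups, Icam1 was higher in 4, with E2f4 overexpression, both Tead1 hairpins and Atf3 sh6. Birc3 passed in none. Rela passed in 4, higher with E2f4 overexpression and lower with E2f4 sh1, Tead1 sh3 and Tead1 sh4. Its call with E2f4 sh1 was lost without nt replicate 1 or nt replicate 2.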

How the data were processed

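RNA-seq of 44 libraries and ATAC-seq of 13 samples were used. Per the submitters' processing notes, reads were trimmed with Trimmomatic 0.39 or Trim Galore 0.6.6, aligned with HISAT2 2.2.1 or Bowtie2 2.3.5.1 to mm10, and counted with HTSeq 0.12.4. The deposited RNA-seq values were raw counts per gene. Reads outside genes (no feature, 5.636% to 15.08% of the reads where listed) were left out of library sizes. The authors called ATAC-seq peaks with MACS2 for each sample, and the deposited lists hold a fold enrichment (ratio) and −log10 p and q values, with no counts.

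Each experiment was fitted apart with edgeR 4.0.16 (filterByExpr, TMM, quasi-likelihood F-test, all groups of the experiment in 1 fit, Benjamini-Hochberg over all genes tested). The fit was tested on simulated data. Gene models and promoters were RefSeq on GRCm38.p6, the assembly of mm10. Peak strengths were compared with exact permutation tests, without the adjustment over the members that had been planned, since these genes were picked as a list.

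All 10 genes, the targeted genes and, from pathway lists, the genes with the largest passed changes at an average log2 CPM of at least 1 were named (at most 4 a list in the late passage comparisons and 3 an intervention), and for likeness the 3 genes with the highest r at an average log2 CPM of at least 3. The members and lists were chosen with earlier results of these data known. Alternatives were DESeq2 1.42.0 and its size factors, no filter, at least 10 counts in every library, only the 2 groups compared, a replicate block, leaving out each library and, added after the data were seen, library totals and a doubled tail of the exact test, and for peaks a window of 500 bases, other start sites, fold enrichment and a −log10 q of at least 5. Replicates were compared by chi-square over genes, and no pair of libraries agreed within sampling noise. Counts limit precision most for Rel and Icam1, and intervals cover the spread between libraries. DNA methylation samples were not analysed here.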

Additional observations from a re-analysis of the deposited data

Results flagged for a closer look

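4 of 50 groups of passage values held a library far from the other 3, by Dixon's 95% limit for 4 values, which chance passes in about 1 of 20 groups. Nfkb1 stood at 85.1 CPM in P1 replicate 3, with the other libraries at 76.5 to 77.7 CPM. Rel stood at 3.6 CPM in P5 replicate 2, with the others at 2.52 to 2.58 CPM. Rela stood at 109 CPM in P7 replicate 2, with the others at 95.5 to 97.4 CPM, and its P7 against P1 call was lost without that library. Relb stood at 12.7 CPM in P3 replicate 1, with the others at 10.6 to 10.8 CPM.

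The Atf3 hairpins sh6 and sh5, fitted together with their shared control, differed for 5 members by the test of the difference itself (edgeR, adjusted p under 0.05). The log2 difference was 0.95 for Nfkb2, 0.86 for Rela, 0.70 for Icam1, 0.51 for Tnfaip3 and -0.38 for Nfkbia. Without sh5 replicate 3 these were 0.70, 0.59, 0.62, 0.42 and -0.54.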

How the results depend on the processing

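Of 140 fold changes of members, 45 passed the test, and none of these changed its sign under any alternative run. Of the 45, 13 lost the call in some setting. The counts of members past the test moved by over 1.5 times in these cases. At P7 against P3 there were 4 with library totals in place of 2, and for E2f4 sh1 there were 2 without a filter in place of 1. For Atf3 sh6 against nt there were 8 with only these groups fitted in place of 4. With single libraries left out, the counts ranged over 0 to 2 for E2f4 sh1, 1 to 2 at P5 against P3, 5 to 8 for E2f4 overexpression and 3 to 6 for Atf3 sh6 against sh5. In the E2f4 overexpression fits without a library, the lone library was assumed to vary like the other group. The peak comparison gave 3 members under 0.05 with the absolute difference and 0 with the doubled tail, and 0 to 0 without any 1 sample, where such a p cannot be reached. The causes were not tested, except that fewer samples limit the exact test.

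Numbered replicates were also fitted as a replicate block. Members past the test were then 4 in place of 3 at P3 against P1 and 5 in place of 4 at P5 against P1 (Nfkbiz added, adjusted p = 0.0231 and 0.0156), 4 in place of 5 for Atf3 sh6 against sh5, and equal in number elsewhere. For Atf3 sh5 against nt, Nfkb2 was added (adjusted p = 0.0473) and Relb lost (adjusted p = 0.0536). Same-numbered deviations correlated at -0.262 to 0.276 in the passage libraries, 0.142 in E2f4 overexpression, 0.0232 to 0.0342 in E2f4 sh1, -0.0446 to 0.112 with Tead1 and -0.158 to 0.137 with Atf3 hairpins, so the numbers were not taken to pair samples. Every library correlated best with its own number in E2f4 sh1 (6 of 6), a hint from the data and not from the design. With passage, 10 of 16 did, and the mean correlation was 0.0745 for equal numbers and -0.0246 for different ones. Whether the passage numbers pair samples thus stayed undecided. With Tead1 and Atf3, 5 of 9 and 2 of 9 did. In E2f4 overexpression 4 of 4 did. With 2 libraries a group the deviations mirror each other, so that count could only be all or none and is no hint. Depth limits Rel, Icam1 and Atf3 most, with as few as 24, 22 and 8 reads in a library.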
